A study of Mus musculus with 6 samples.

Results

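The liver response to a diet with the methanol fraction of Boswellia serrata was compared with that to a control diet, on 4 of the 6 expression arrays of the study. The groups were taken from the sample titles: 2 arrays labelled as controls and 2 labelled as fraction 2, here methanol a and methanol b. All were made from total liver RNA of Swiss-Webster mice, an outbred stock. Mice of the methanol group ate the fraction at 1% of their food over 21 days, and the controls ate the control diet. The other 2 arrays, hexane a and hexane b, came from mice that ate a hexane fraction at the same 1% over 21 days. Neither the age nor the sex of the mice, nor whether an array held 1 animal or a pool, is stated in the labels; a p-value here therefore reflects just the variation among these arrays, which may be technical.

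Boswellia serrata is the tree that yields Indian frankincense, a gum resin whose boswellic acids are best known as inhibitors of 5-lipoxygenase, the enzyme that starts leukotriene synthesis. Foreign compounds that reach the liver are sensed by nuclear receptors such as CAR and PXR, which switch on cytochromes P450, and by the regulator Nrf2, which switches on glutathione S-transferases and export pumps. These enzymes oxidise a compound, conjugate it and hand it to transporters for bile or blood. Mouse liver also expresses a set of genes more strongly in males than in females, under the control of pulsatile growth hormone.

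Of 22690 probe sets on the array 14755 passed a brightness filter, and 9209 genes were followed through their brightest tested probe set. Hepatocyte markers were at the top of the range: albumin (Alb) read 23475.4 and 27250.4 array units on control 1 and control 2 and 19052 and 18755 on methanol a and methanol b. The median signal of the 6 arrays ran from 139.3 to 167.2 array units. Control 2 stood apart in a sign of RNA quality, the ratio of the 3' to the 5' actin control probe sets, which was 3.874 there and 2.133 to 2.641 on the other 5 arrays. Over all 22626 probe sets other than the array's own control probe sets, control 1 correlated less with control 2 (r = 0.955) than with methanol a (r = 0.976). The arrays were scanned in 2 batches, and each held a control: batch 1 had control 2 and methanol b, with both hexane arrays, and batch 2 had control 1 and methanol a. In liver RNA as a whole, fewer cells of a type and less RNA per cell cannot be told apart.

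Feeding the methanol fraction was followed by higher expression of a small group of genes, most of which handle foreign compounds. The message for a steroid-metabolizing enzyme was far lower. The genes that rose were the cytochromes P450 Cyp2c55, Cyp2b10 and Cyp2g1, the glutathione S-transferases Gstm3 and Gstm2, the transporters Slco1a4 and Abcc3, the tubulin gene Tubb2a, and Btbd2, which encodes a BTB-domain protein. Hsd3b5, a 3-ketosteroid reductase of the hydroxysteroid dehydrogenase family found in male mouse liver, and Serpina12, which encodes the secreted protein vaspin, fell. For each of these genes the hexane arrays lay beyond the same controls in the same direction, so these changes were not particular to the methanol fraction. Fold changes were taken on the scale of log2(signal + 16), and a gene was called at an adjusted p under 0.05 in a limma fit to all 6 arrays. Of the tested probe sets 14 passed as higher (0.0949%) and 2 as lower (0.0136%). They stood for 9 higher genes (0.0977% of genes) and 2 lower genes (0.0217%), and 3 of the probe sets had no single gene symbol. Of these 3, 1421041_s_at and 1422230_s_at carry several symbols and 1423556_at none. Probe set 1421041_s_at read 3533.8 and 4297.5 on the controls and 11963.4 and 10164.7 on the methanol arrays (adjusted p = 0.00919). Probe set 1422230_s_at read 4655.7 and 3217.8 and then 14068.5 and 14407.4 (adjusted p = 0.00837). Counts of genes and gene lists leave out such probe sets. An unadjusted p under 0.05 was found for 1026 probe sets, and among the 9209 genes for 305 in the higher direction (3.31%) and 361 in the lower (3.92%), the shares beside which such counts in gene lists are to be read. In all 16 called probe sets the 2 methanol arrays lay beyond both controls. Such a separation was common: it was seen in the higher direction for 1340 genes (14.6%) and in the lower for 1990 (21.6%).

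Cyp2c55 and Hsd3b5 passed under each of 16 alternative settings, and each of the 11 genes kept its direction in all of them. The other 9 genes did not pass with no variance trend. Without methanol a, and again without methanol b, 2 of the 11 genes passed, Cyp2c55 and Hsd3b5. Without control 1 or without control 2, 9 genes passed and Serpina12 and Abcc3 did not. Without hexane a 7 passed and without hexane b 8, with Serpina12, Abcc3 and Gstm2 lost each time and Btbd2 also lost without hexane a. With chip lot as a block 5 genes passed, and Slco1a4, Tubb2a, Btbd2, Serpina12, Abcc3 and Gstm2 did not; chip lots were shared between groups, with control 1 and methanol a in lot 2 and hexane b and methanol b in lot 3. Over the same alternatives the log2 difference ran from 1.59 to 1.86 for Gstm3, from 2.42 to 3.23 for Cyp2b10, from 1.88 to 2.21 for Cyp2g1, from 1.48 to 1.71 for Slco1a4 and from 1.80 to 2.12 for Tubb2a. For Btbd2 it ran from 1.71 to 2.42, for Abcc3 from 1.27 to 1.49, for Gstm2 from 1.38 to 2.13 and for Serpina12 from -2.02 to -1.48.

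**Figure D1:**
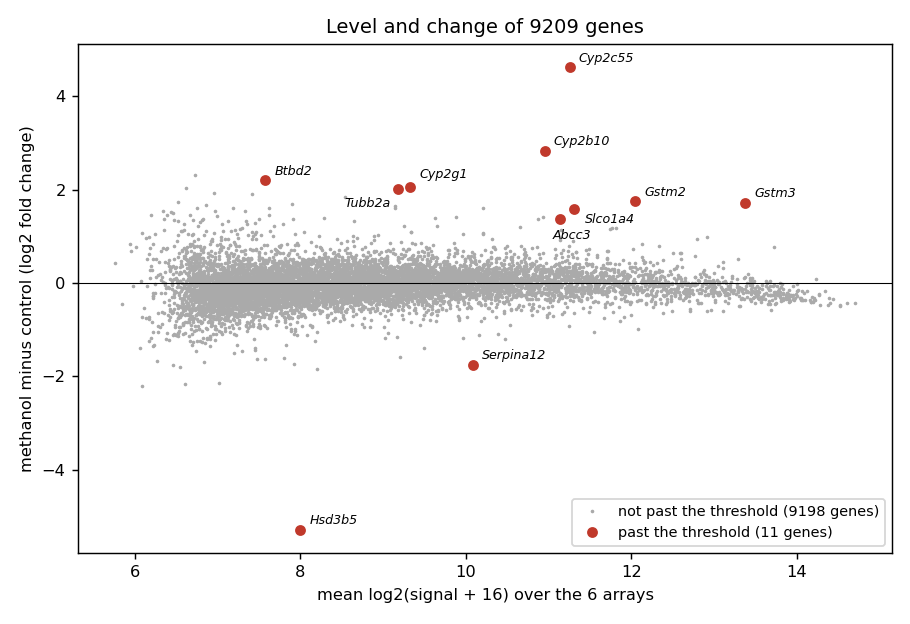
Mean level over the 6 arrays (x, log2(signal + 16)) against the methanol minus control difference (y, log2 fold change) for 9209 genes. The 11 red points passed an adjusted p of 0.05 with limma; Cyp2c55 at 4.62 and Hsd3b5 at -5.28 lie at the extremes of the plot.

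Cyp2c55 belongs to a cytochrome P450 subfamily that oxidises drugs and fatty acids, and it had the largest increase of all tested genes. It read 217.3 and 268.7 array units on control 1 and control 2, against 6644.6 on methanol a and 6039.9 on methanol b. The difference was 4.62 ± 0.17 on the log2 scale (SE, adjusted p = 2.69e-05), a 24.6-fold rise. The groups were far apart and the arrays within each were close, with means of 243 ± 36.4 and 6342.2 ± 427.6 (SD, n = 2). Cyp2b10, the classical target of CAR, read 282.9 and 508.9 on control 1 and control 2 and 2885.5 and 2712.5 on methanol a and methanol b. It rose by 2.83 ± 0.27 log2 units (adjusted p = 0.00918), or 7.1-fold. The controls differed from each other more than the methanol arrays did, but neither came near them. Of 2 further probe sets for Cyp2b10, 1451787_at also passed (2.18, adjusted p = 0.0488) and 1422257_s_at did not (2.86, adjusted p = 0.103). Cyp2g1, known as an olfactory cytochrome P450 that is also found in liver, read 243.6 and 253.9 on the controls and 1210.9 and 976.5 on the methanol arrays. Its rise was 2.06 ± 0.20 log2 units (adjusted p = 0.00918), with no overlap between the groups.

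The promoters of Cyp2c55 and Cyp2b10 are shown because these genes gave the largest increases when each gene is taken by its brightest probe set. The windows run from 250 bases before to 50 bases after the start site, written 5′ to 3′ on the gene's strand, from RefSeq on GRCm38.p6. Capitals mark any match, on either strand, to the motifs TGACNNNGC (the antioxidant response element core, found in 12.4% of 32851 promoter windows), AGGTCA (16.3%) and AGTTCA (14.0%), both nuclear receptor hexamers, TTCNNNGAA (the STAT element, 8.3%) and TATAAA (13.6%).
Cyp2c55, chr19:39006769-39007068, plus strand: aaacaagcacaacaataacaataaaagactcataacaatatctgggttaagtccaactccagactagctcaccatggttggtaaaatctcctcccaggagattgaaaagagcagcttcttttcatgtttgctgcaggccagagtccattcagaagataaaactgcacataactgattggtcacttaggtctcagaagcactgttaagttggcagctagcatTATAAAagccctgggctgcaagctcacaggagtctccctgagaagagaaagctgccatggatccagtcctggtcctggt
Cyp2b10, chr7:25897408-25897707, plus strand: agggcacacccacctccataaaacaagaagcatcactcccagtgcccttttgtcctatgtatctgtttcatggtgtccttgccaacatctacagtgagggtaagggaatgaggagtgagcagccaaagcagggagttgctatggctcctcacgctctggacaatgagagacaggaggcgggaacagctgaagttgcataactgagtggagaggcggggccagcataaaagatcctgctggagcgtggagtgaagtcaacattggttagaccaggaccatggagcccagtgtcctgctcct
In the Cyp2c55 window the letters TATAAA begin 29 bases before the start site. In the Cyp2b10 window none of the 5 motifs was found, which says only that these letters are not in these 300 bases. Of the 11 called genes 9 had a promoter in the table, and among them TGACNNNGC was in the window of 1, AGTTCA of 1 and TATAAA of 2, the other being Tubb2a. AGGTCA and TTCNNNGAA were in the windows of 0 of the 9.

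Most other enzymes of drug oxidation did not pass. Of 17 tested targets of CAR and PXR, Cyp2c55 and Cyp2b10 rose and 15 did not pass; 10 of the 17 were above 0 and the median was 0.18 (0.12 without methanol b), against -0.05 over all 9209 genes. Cyp3a11, the main PXR target in mouse liver, was among the most abundant messages, at 13638.2 and 18290.6 on the controls and 15772.3 and 15547.9 on the methanol arrays. Its difference was -0.01 ± 0.15 (adjusted p = 0.987), and the methanol arrays lay between the controls. Ces2a, a carboxylesterase that cleaves ester drugs, read 8270.2 and 9321.2 on the controls and 15809.4 and 14421.6 on the methanol arrays, a difference of 0.78 ± 0.12 that did not pass (adjusted p = 0.103) although the groups did not overlap. Of 20 tested other P450s, Cyp2g1 rose and 19 did not pass, with 5 above 0 and a median of -0.19. Cyp17a1, a steroid hydroxylase, was at 128.4 and 122.8 on the controls and at 21.7 and 82.2 on the methanol arrays, which differed widely from each other (-1.22 ± 0.47, adjusted p = 0.673).

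The aryl hydrocarbon receptor, a sensor of planar aromatic compounds, has Cyp1a1 and Cyp1a2 as its classical targets. Of 7 tested genes of this pathway 0 passed with limma and 0 had an unadjusted p under 0.05. Cyp1a2 read 8117.7 and 5421.1 on the controls and 7730.9 and 5651.2 on the methanol arrays, with a difference of -0.01 ± 0.23 (adjusted p = 0.997). The 95% interval of that difference ran from -0.52 to 0.51.

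Glutathione S-transferases couple glutathione to reactive compounds, and 2 of the mu class rose. Gstm3 was already abundant, at 5042.3 and 4182.4 array units on control 1 and control 2, and reached 15673.9 on methanol a and 14697 on methanol b. The rise was 1.72 ± 0.14 log2 units (adjusted p = 0.00357). Another probe set for it, 1427473_at, read 1487.3 and 895.5 on the controls and 13823.2 and 11426.9 on the methanol arrays, a rise of 3.43 (adjusted p = 0.00119). Both probe sets separated the groups, and they differed in the size of the change. Gstm2 read 2172.1 and 1288.1 on the controls and 5988.1 and 5412.7 on the methanol arrays, a rise of 1.76 ± 0.23 (adjusted p = 0.0488). It was at the edge of the threshold and passed in 6 of the 16 alternatives. Genes of the mu class are close copies of each other, and probe sets of this array can be shared between them, so the split of signal among members is uncertain.

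The Gstm2 and Gstm3 windows are printed so that these neighbours can be compared around their starts, with capitals as defined for Cyp2c55.
Gstm2, chr3:107986371-107986670, minus strand: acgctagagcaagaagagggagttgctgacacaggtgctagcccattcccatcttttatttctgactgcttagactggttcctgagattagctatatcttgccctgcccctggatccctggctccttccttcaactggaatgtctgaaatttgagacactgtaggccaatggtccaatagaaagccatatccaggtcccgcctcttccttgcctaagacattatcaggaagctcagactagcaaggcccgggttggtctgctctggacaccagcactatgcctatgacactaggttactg
Gstm3, chr3:107969125-107969424, minus strand: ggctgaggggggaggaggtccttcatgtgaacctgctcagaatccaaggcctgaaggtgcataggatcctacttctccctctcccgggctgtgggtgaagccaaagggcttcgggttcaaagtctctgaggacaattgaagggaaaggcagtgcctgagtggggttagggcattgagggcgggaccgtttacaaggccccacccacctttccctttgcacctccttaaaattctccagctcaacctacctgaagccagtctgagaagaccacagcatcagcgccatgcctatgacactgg
Both windows end within the coding start, and their longest shared run of letters was 14 bases, ATGCCTATGACACT, which begins with the ATG. Among all 15 pairs of the 6 promoters printed here, the longest run shared by any other pair was 11 bases, between Cyp2b10 and Gstm2. None of the motifs was in either window.

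Of 19 tested transferases Gstm2 and Gstm3 rose and 17 did not pass; 14 were above 0, and the median of 0.31 stood beside -0.05 over all genes. The methanol arrays lay above both controls for 10 of the 19 (52.6%, against 14.6% of all genes) and below both for 3. Gstm4 read 1049.8 and 827.9 on the controls and 2631.8 and 2256.8 on the methanol arrays, 1.37 ± 0.19 higher, just outside the threshold (adjusted p = 0.0568). Gstt3, of the theta class, read 2321.7 and 1517.5 and then 4358.6 and 4229.8 (1.19 ± 0.20, adjusted p = 0.174). Of 20 tested other antioxidant genes under Nrf2, Abcc3 rose and 19 did not pass, while 17 were above 0 and 9 had both methanol arrays above both controls. Their median of 0.20 was 0.06 without control 2 and 0.39 without control 1. Nqo1, a quinone reductase widely used as an Nrf2 readout, read 194.2 and 228.2 on the controls and 323.2 and 237.2 on the methanol arrays, a difference of 0.37 ± 0.23 (adjusted p = 0.787). Cbr3, a carbonyl reductase, was dim, at 73.8 and 25.7 on the controls, and read 187.3 and 152.6 on the methanol arrays (1.60 ± 0.42, adjusted p = 0.494). Gclc, the catalytic subunit of the enzyme that starts glutathione synthesis, went from 1348.8 and 1290.9 to 2023 and 1904.1 (0.57 ± 0.18, adjusted p = 0.595). All 3 were separated from the controls, and none was called. In another probe set for Gclc, 1424296_at, the groups overlapped, at 1483 and 577.6 on the controls and 1820.5 and 963.7 on the methanol arrays.

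Glucuronidation and sulfation genes had no common direction. Of 16 tested, 0 passed with limma, 4 had an unadjusted p under 0.05, 2 of them higher and 2 lower, and the median was -0.04 (0.07 without control 1 and -0.06 without methanol a). Ugdh, which makes the UDP-glucuronic acid that glucuronosyltransferases use, read 2331.8 and 1551 on the controls and 4731.4 and 3893 on the methanol arrays (1.17 ± 0.21, adjusted p = 0.202). Ugt2b38, itself a glucuronosyltransferase, read 250.9 and 321.6 and then 111.9 and 94.9 (-1.33 ± 0.28, adjusted p = 0.347). The groups of both genes were apart, in opposite directions.

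Slco1a4 and Abcc3 sit in the hepatocyte membrane that faces the blood. Slco1a4 encodes an organic anion uptake carrier. It read 1167.6 and 988.6 on control 1 and control 2, against 3180.3 on methanol a and 3372.9 on methanol b. The rise was 1.59 ± 0.16 log2 units (adjusted p = 0.00977), with tight replicates in both groups. Abcc3 encodes a pump that exports conjugates to blood. It read 1371.7 and 1220.6 on the controls and 3618.4 and 3144.2 on the methanol arrays, a rise of 1.37 ± 0.18 (adjusted p = 0.0488). Abcc3 was at the edge of the threshold and passed in 3 of the 16 alternatives. The remaining 12 of 13 tested uptake carriers did not pass, and of the 13 the methanol arrays lay below both controls for 7 (53.8%, against 21.6% of all genes) and above both for 5 (38.5%, against 14.6%). Slc22a7, an organic anion carrier, read 959.1 and 1815.4 on the controls and 324.2 and 565.5 on the methanol arrays (-1.59 ± 0.34, adjusted p = 0.347). Among 10 tested export pumps Abcc3 rose and 9 did not pass. Abcc2, which exports conjugates to bile, read 399.9 and 345.3 and then 727.9 and 465.4 (0.63 ± 0.24, adjusted p = 0.673), and Abcb1a, a P-glycoprotein, had a difference of 0.64 ± 0.21 (adjusted p = 0.607).

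Tubb2a encodes a beta-tubulin, a subunit of microtubules. It read 190.9 and 213.3 on the controls and 818.5 and 906.4 on the methanol arrays, a rise of 2.01 ± 0.21 (adjusted p = 0.01). Of 8 tested tubulin genes it was the 1 that passed. Tubb4b, the next by p, read 1606 and 1059.7 and then 2396.3 and 2610.4 (0.93 ± 0.23, adjusted p = 0.428), while its 4 other probe sets lay between -0.31 and 0.23. Btbd2 was the dimmest of the called genes on the control arrays, at 68.5 and 66.3, and read 370.6 and 361.1 on the methanol arrays. It rose by 2.20 ± 0.24 (adjusted p = 0.0155), and the replicates of each group were nearly equal. The gene passed in 8 of the 16 alternatives. Its promoter was the 1 of the 9 with TGACNNNGC, and is printed for that match, in capitals.
Btbd2, chr10:80656445-80656744, minus strand: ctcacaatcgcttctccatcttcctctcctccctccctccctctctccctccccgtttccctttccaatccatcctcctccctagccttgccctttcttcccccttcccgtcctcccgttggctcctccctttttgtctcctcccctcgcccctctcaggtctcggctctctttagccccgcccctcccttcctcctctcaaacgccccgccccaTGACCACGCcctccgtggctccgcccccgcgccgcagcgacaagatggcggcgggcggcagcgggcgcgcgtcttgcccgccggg
The match TGACCACGC begins 35 bases before the start site. The motif was in 12.4% of all windows, and a match of letters is no evidence of binding.

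**Figure D2:**
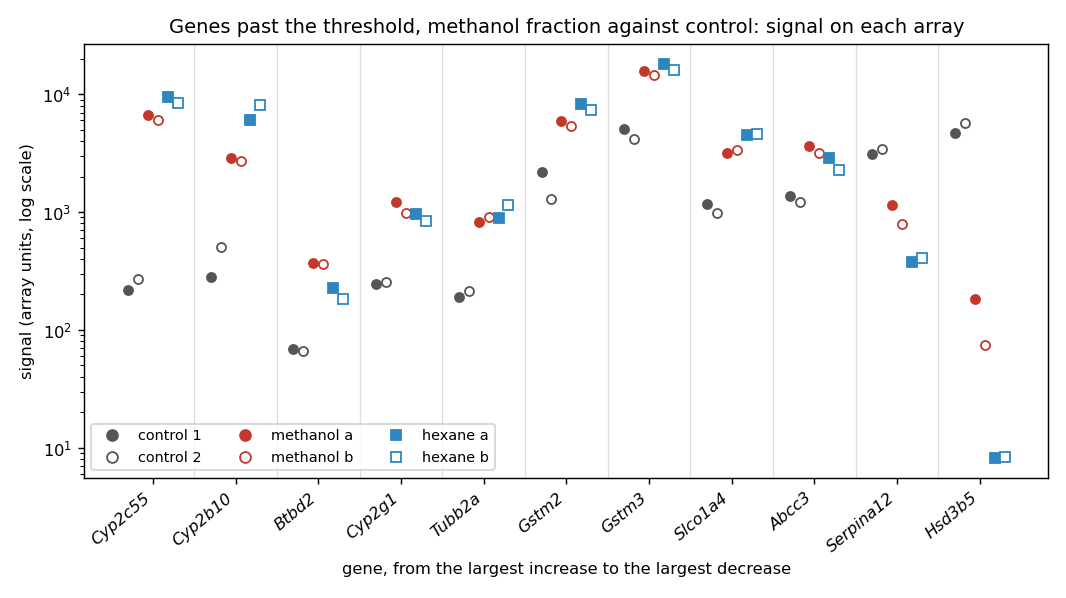
Signal in array units (y, log scale) of the 11 called genes (x) on each of the 6 arrays; circles are control and methanol arrays, squares hexane arrays. For each gene both methanol points lie on 1 side of both control points; Hsd3b5 drops from 4684.7 and 5754.4 to 182.1 and 74.4.

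The largest decrease of all tested genes was that of Hsd3b5, which in male mouse liver inactivates steroids. It read 4684.7 and 5754.4 array units on control 1 and control 2, against 182.1 on methanol a and 74.4 on methanol b. The fall was -5.28 ± 0.35 log2 units (adjusted p = 0.00119), 38.9-fold. On the log2 scale the methanol arrays differed from each other by more than the controls did, and both were far below them. Serpina12 read 3099.8 and 3410.4 on the controls and 1157.6 and 791.7 on the methanol arrays, a fall of -1.75 ± 0.22 (adjusted p = 0.0385). Its groups were also apart, and it passed in 5 of the 16 alternatives.

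The Hsd3b5 promoter is shown as that of the gene with the largest decrease, with capitals as before.
Hsd3b5, chr3:98645485-98645784, minus strand: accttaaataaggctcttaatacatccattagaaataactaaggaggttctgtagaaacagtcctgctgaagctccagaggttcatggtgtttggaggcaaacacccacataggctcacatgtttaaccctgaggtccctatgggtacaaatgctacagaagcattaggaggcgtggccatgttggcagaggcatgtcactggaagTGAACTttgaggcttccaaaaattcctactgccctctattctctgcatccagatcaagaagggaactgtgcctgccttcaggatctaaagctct
The match, TGAACT, is AGTTCA read on the other strand and begins 44 bases before the start site. AGTTCA was in 14.0% of all windows.

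Hsd3b5 and Serpina12 both belong to a list of genes with male-biased expression in mouse liver, which was put together with results of these data known. Of its 18 tested members these 2 fell and 16 did not pass, while 16 were below 0 and 15 (83.3%) had both methanol arrays below both controls, against 21.6% of all genes. The median was -0.61 over the list and -0.05 over all genes, and within scan batches 1 and 2 it was -0.73 and -0.37. With chip lot as a block it was -0.32. At an unadjusted p under 0.05, 9 members were lower and 0 higher. C8b, a subunit of the membrane attack complex of complement, read 3826.1 and 4707.7 on the controls and 1998.1 and 2490.2 on the methanol arrays (-0.92 ± 0.19, adjusted p = 0.343). Cyp7b1, an oxysterol hydroxylase, read 3689.2 and 3954.7 and then 2654.5 and 2337.8 (-0.61 ± 0.21, adjusted p = 0.635). Both were apart from the controls without passing. Not every member was lower: Mup3, of the major urinary protein family, whose copies are alike enough that their signals may be mixed, read 5333 and 6501.3 on the controls and 7841.4 and 10818.2 on the methanol arrays (0.64 ± 0.55, adjusted p = 0.82), and Cyp4a12a, a fatty acid hydroxylase, read 3831.1 and 3213.7 and then 4537.8 and 3372.7 (0.16 ± 0.37, adjusted p = 0.939). Both were picked after their values were seen, as the 2 members above 0.

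Of 12 tested female-biased genes 0 passed with limma and 1 had an unadjusted p under 0.05, in the lower direction. Their median was -0.17 (-0.09 without control 1, -0.07 without control 2 and -0.11 without methanol b), and 5 were above 0. Genes of growth hormone signalling gave 0 calls among 15 tested and 4 at an unadjusted p under 0.05, all lower. Socs3, a feedback inhibitor of cytokine receptors, read 197.4 and 213.4 on the controls and 106.4 and 37 on the methanol arrays (-1.46 ± 0.39, adjusted p = 0.512). Cish, another such inhibitor and a target of STAT5, read 857.1 and 471.2 and then 299 and 348.4 (-0.94 ± 0.28, adjusted p = 0.535). Igf1, the hormone made by liver under growth hormone, read 12207.6 and 21419.7 on the controls and 11835.6 and 13211.9 on the methanol arrays (-0.37 ± 0.23, adjusted p = 0.787), with groups that overlapped. In its other probe sets, 1437401_at (-0.53, adjusted p = 0.648) and 1419519_at (-0.35, adjusted p = 0.791), both methanol arrays lay below both controls. Hsd3b2, a relative of Hsd3b5, read 1237.9 and 1931.6 and then 564 and 842.5 (-1.15 ± 0.42, adjusted p = 0.648). Among 17 tested steroid dehydrogenases and reductases Hsd3b5 fell and 16 did not pass, and the median was -0.25 (-0.01 without control 1 and -0.01 without methanol b).

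Several genes had separate groups and at least a 2-fold difference without passing; there were 92 such genes in the higher and 77 in the lower direction when the called genes are included. Clones and numbered loci aside, those nearest the threshold after the called genes were H1f2, Gstm4 and Ttc39c, each at adjusted p = 0.0568. H1f2, a linker histone, read 495.4 and 614.3 on the controls and 1387.2 and 1624.1 on the methanol arrays, 1.42 ± 0.20 higher; its 2 other probe sets gave 1.37 and -0.11. Ttc39c, which encodes a protein with tetratricopeptide repeats, read 4749 and 5104.4 and then 2279.3 and 2430.7, a difference of -1.06 ± 0.15. Cd36, a fatty acid carrier of the cell membrane, read 121.1 and 98.7 on the controls and 463.2 and 326.9 on the methanol arrays (1.69 ± 0.28, adjusted p = 0.154), and its 2 other probe sets were also higher, by 1.47 and 0.85. In the lower direction Mast3, a kinase gene, went from 892.7 and 721.1 to 367.2 and 323 (-1.18 ± 0.20, adjusted p = 0.174). Rtp4, an interferon-inducible gene, went from 513.7 and 454.1 to 210.4 and 242 (-1.05 ± 0.22, adjusted p = 0.347). Atp4b, Slc22a7, Ugt2b38, Col25a1, Olfr140 and Arih2 lay between -1.63 and -1.03 with adjusted p from 0.347 to 0.388, and 2 other probe sets for Arih2 gave 0.01 and -0.24.

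**Figure D3:**
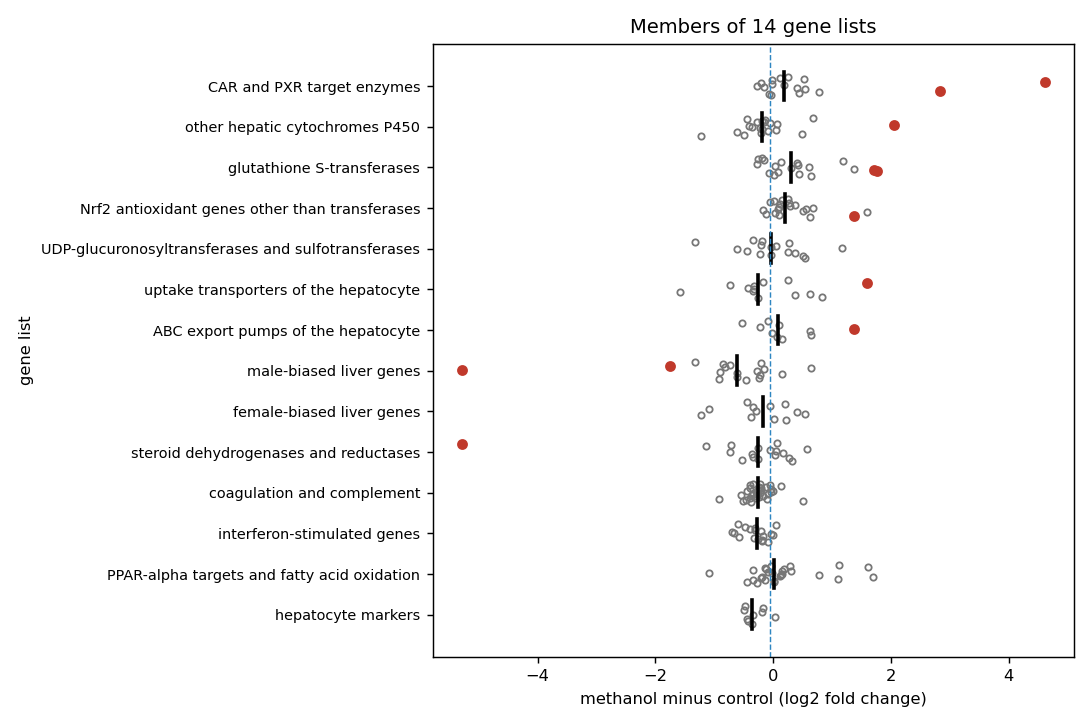
Methanol minus control difference (x, log2 fold change) of each tested member of 14 gene lists (y). Filled red points passed an adjusted p of 0.05 with limma, open points did not, black bars are list medians and the dashed line is the median of all genes, -0.05; male-biased genes have the lowest median, -0.61, and glutathione S-transferases the highest, 0.31.

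No list of lipid genes had a called member, and single members lay at higher or lower values. Of 27 tested targets of PPAR-alpha, the fatty acid sensor, 0 passed with limma, 8 had an unadjusted p under 0.05 (5 higher and 3 lower) and the median was 0.01 (-0.02 without control 1, 0.03 without control 2, -0.01 without methanol a and 0.06 without methanol b). Acot1, an acyl-CoA thioesterase, read 339 and 393.7 on the controls and 690.8 and 925 on the methanol arrays (1.10 ± 0.23, adjusted p = 0.347). Vnn1, a pantetheinase, read 142.4 and 130.6 and then 349.8 and 280.1 (1.11 ± 0.26, adjusted p = 0.378). Cyp4a14, among the most inducible PPAR-alpha targets, read 3586.3 and 1378.3 on the controls and 963.7 and 1109.1 on the methanol arrays (-1.09 ± 0.69, adjusted p = 0.787). The list thus held members on both sides of 0. Pparg, the fat-cell relative of that receptor, was dim at 76.8 and 17.1 on the controls and 254.2 and 109.9 on the methanol arrays (1.74 ± 0.66, adjusted p = 0.671).

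Among 23 tested genes of fat synthesis 0 passed with limma, 2 had an unadjusted p under 0.05, both lower, and the median was -0.12 (0.00 without control 1 and -0.31 without control 2). Fasn, the fatty acid synthase, read 6135.1 and 3166.4 on the controls and 4848.3 and 5242.6 on the methanol arrays, which lay between them (0.19 ± 0.27, adjusted p = 0.884). Of 19 tested cholesterol synthesis genes 0 passed, 4 had an unadjusted p under 0.05 (3 higher and 1 lower) and the median was 0.15 (0.32 without control 1, -0.12 without control 2, 0.06 without methanol a and 0.24 without methanol b). Hmgcs1, which makes the precursor of mevalonate, read 4529.7 and 4071.2 and then 6081.9 and 6137.1 (0.51 ± 0.14, adjusted p = 0.535). Of 17 tested bile acid synthesis genes 0 passed and 3 had an unadjusted p under 0.05. Cyp7a1, the rate-limiting enzyme of the classical pathway, read 2001.7 and 776.9 on the controls and 1775.3 and 1481.2 on the methanol arrays (0.37 ± 0.37, adjusted p = 0.838). Cyp8b1, which sets the share of cholic acid, read 3395.3 and 3967.2 and then 6694.5 and 5970 (0.78 ± 0.18, adjusted p = 0.378). Cyp8b1 separated the groups and Cyp7a1 did not, and neither passed.

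Because boswellic acids are known for their action on 5-lipoxygenase, the genes of leukotriene and prostaglandin metabolism were examined as a list. Of 13 tested, 0 passed with limma and 2 had an unadjusted p under 0.05, 1 higher and 1 lower; the median was -0.18 (-0.31 without methanol a). Ptgds, a prostaglandin D synthase, read 784.9 and 751.2 on the controls and 152.6 and 267.4 on the methanol arrays (-1.84 ± 0.38, adjusted p = 0.347). Both methanol arrays were far below both controls. Among 17 tested genes of the NF-kB pathway and its mediators 0 passed and 1 had an unadjusted p under 0.05. That gene, Il1r1, the interleukin 1 receptor, read 326 and 274 and then 82.2 and 142.6 (-1.33 ± 0.33, adjusted p = 0.456). Acute phase proteins gave 0 calls among 25 tested and 8 at an unadjusted p under 0.05, 3 higher and 5 lower. Saa1, a serum amyloid A gene, read 599.7 and 624.5 on the controls, 758.5 on methanol a and 3440.1 on methanol b (1.38 ± 0.78, adjusted p = 0.769), so that its difference rested on 1 array. Saa3, another serum amyloid A gene, was higher on both methanol arrays without passing. It read 356.6 and 232.2 on the controls and 762.7 and 1089.4 on the methanol arrays (1.609 ± 0.495, adjusted p = 0.554). Mt1, a metallothionein, read 5210.2 and 2940 and then 7499.1 and 7970.6 (0.98 ± 0.30, adjusted p = 0.543).

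Interferon-stimulated genes and coagulation and complement genes had small differences, mostly below 0, and 0 calls. Of 18 tested interferon-stimulated genes 17 were below 0, and 14 (77.8%) had both methanol arrays below both controls, against 21.6% of all genes. Their median was -0.28, yet 0 passed with limma and 0 had an unadjusted p under 0.05. Oas2, an antiviral enzyme, read 198.2 and 186.5 on the controls and 77.2 and 159.1 on the methanol arrays (-0.70 ± 0.34, adjusted p = 0.747). Of 32 tested coagulation and complement genes 29 were below 0 and 21 (65.6%) had the methanol arrays below both controls. Their median was -0.25, and -0.15 after quantile normalization. None of the 32 passed with limma, and 5 had an unadjusted p under 0.05, 4 lower and 1 higher.

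Centring each array on its median moved the median of all genes from -0.05 to 0.06, so small shifts of a list depend on the scaling. Small negative differences were common among the most abundant messages. The 179 genes with a mean signal of at least 10000 had a median of -0.24, and after quantile normalization of -0.03. Of 9 tested hepatocyte markers 8 were below 0, with a median of -0.37 that became -0.03 after quantile normalization, and their summed signal was 173146.9 and 193694 on the controls and 145887 and 136249.3 on the methanol arrays. The median of 17 apolipoproteins went from -0.30 to -0.00 in the same way, and that of 16 periportal genes from -0.30 (-0.09 without control 1) to -0.10. For male-biased genes it was -0.58 and for glutathione S-transferases 0.36 after quantile normalization, against -0.61 and 0.31 without it. None of the hepatocyte markers passed with limma, and 6 had an unadjusted p under 0.05, all lower.

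Markers of other cell types gave 0 calls with limma. The 13 tested Kupffer cell and macrophage markers had a median of -0.05 (-0.14 without control 1, 0.02 without control 2, 0.01 without methanol a and -0.10 without methanol b), with summed signals of 12212.2 and 13847.5 on the controls and 12020.1 and 13038.9 on the methanol arrays, and 0 had an unadjusted p under 0.05. The 10 tested endothelial markers had a median of -0.04 (-0.33 without control 1, -0.10 without methanol a and -0.08 without methanol b) and 0 had an unadjusted p under 0.05, and the 10 stellate cell and fibroblast markers a median of -0.05 (-0.09 without control 1 and -0.22 without methanol a) with 2 at an unadjusted p under 0.05, both lower. The median of 6 lymphocyte markers was -0.06 (-0.57 without control 1, 0.39 without control 2, 0.13 without methanol a and -0.19 without methanol b) and that of 5 neutrophil markers -0.21 (-0.66 without control 1, 0.04 without control 2 and -0.41 without methanol b), and 0 of the 11 had an unadjusted p under 0.05. Pancreas enzymes were present in these liver arrays. The 7 tested summed to 30721.6 and 19814.5 array units on the controls and 43301.3 and 23636.6 on methanol a and methanol b, and to 15121.3 and 46896.2 on hexane a and hexane b. Ctrb1, a chymotrypsinogen, read 6234.9 and 3538.1 on the controls and 9856.6 and 5521.9 on the methanol arrays (0.65 ± 0.47, adjusted p = 0.799). The groups overlapped, 0 of the 7 had an unadjusted p under 0.05, and their median was 0.45 (0.80 without control 1, 0.06 without control 2, 0.07 without methanol a and 0.88 without methanol b). The part of pancreatic tissue in the other results was not tested.

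Each scan batch held 1 control and 1 methanol array, so that the comparison could be read within each, 1 array against 1 and with no test. All 11 called genes had the same direction in both batches. Cyp2c55 was higher by 4.41 in batch 1 and 4.83 in batch 2, and Cyp2b10 by 2.38 and 3.28. Hsd3b5 was lower, at -6.00 in batch 1 and -4.57 in batch 2. These 3 genes kept their direction, with sizes that differed between the batches. Across all 9209 genes the batches had little in common: r was 0.209 between their differences, as a description across genes that share arrays and scaling, and 58.9% of genes had the same sign. A difference of at least 2-fold was seen in both batches for 43 genes in the higher and 27 in the lower direction, and in opposite directions for 38. With scan batch as a block in the fit 24 probe sets passed, 20 higher and 4 lower, and all 11 called genes were among them.

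**Figure D4:**
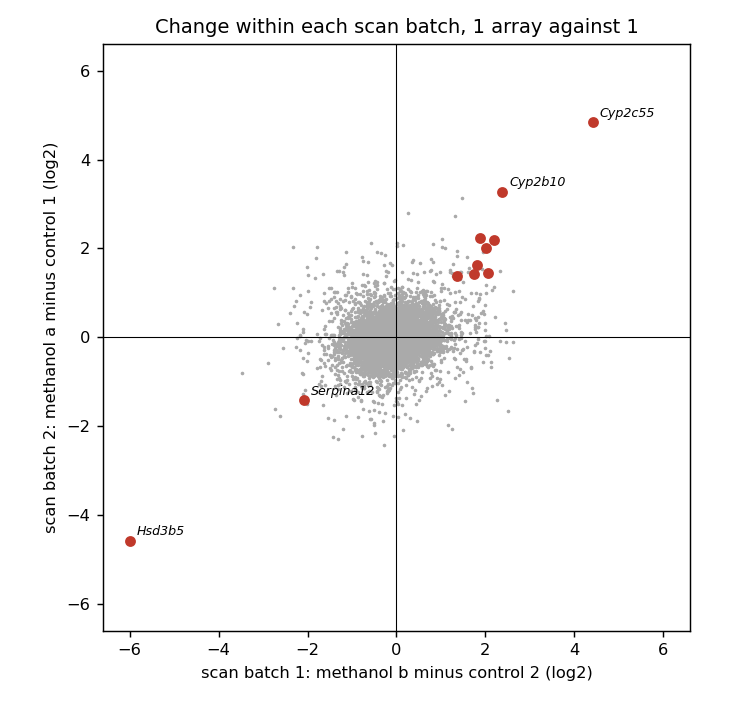
Methanol minus control difference (log2) in scan batch 1 (x, methanol b minus control 2) against that in scan batch 2 (y, methanol a minus control 1) for 9209 genes. The 11 called genes, in red, fall in the upper right and lower left corners; the 7 unlabelled ones lie between 1.35 and 2.24 on both axes.

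The hexane fraction was set beside the methanol fraction to show where the response was alike and where it differed. Both comparisons use the same 2 control arrays, so only their values are given. For each of the 11 called genes both hexane arrays lay on the same side of both controls as the methanol arrays. Slco1a4 read 4518.7 and 4586.3 on hexane a and hexane b, Gstm3 18174.5 and 16059.9, and Gstm2 8308.7 and 7337.9. Tubb2a read 894.8 and 1149.3, Cyp2g1 956.9 and 835.8, and Abcc3 2857.6 and 2286.9. Cyp2c55 read 9465.9 and 8471.4 on hexane a and hexane b, somewhat above the methanol arrays, a methanol minus hexane difference of -0.50 (95% interval -0.89 to -0.11, adjusted p = 0.531). Cyp2b10 read 6082.7 and 8063.1, and its methanol minus hexane difference was -1.32 (interval -1.94 to -0.70, adjusted p = 0.238). Hsd3b5 read 8.2 and 8.3, below the methanol arrays, with a difference of 2.46 (interval 1.67 to 3.26, adjusted p = 0.17), which the added 16 makes smaller than that of the signals themselves. Serpina12 read 376.6 and 408.4, with a difference of 1.25 (interval 0.76 to 1.75, adjusted p = 0.2). Btbd2 went the other way, at 228.4 and 182.7 on the hexane arrays and higher on the methanol arrays, by 0.79 (interval 0.24 to 1.34, adjusted p = 0.475). For each of these 5 genes the methanol and hexane arrays did not overlap. The same held for Slco1a4, Gstm2, Gstm3, Abcc3 and Cyp2g1, so that among the called genes only Tubb2a overlapped. How common such a separation was between the fractions over all genes was not counted. Of the 11 genes 0 passed the direct test between fractions with limma, and 6 had an unadjusted p under 0.05. In 5 of those 6 the methanol arrays were nearer the controls. The intervals of Gstm3 (-0.48 to 0.14) and Cyp2g1 (-0.18 to 0.73) included 0.

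Over all probe sets 2 (0.0136%) passed the direct test, and 1187 had an unadjusted p under 0.05. Neither of the 2 is named here, since 1415896_x_at carries several gene symbols and 1423556_at none. The list of male-biased genes had a median of -0.61 with the methanol fraction and -1.53 with the hexane fraction, each against the same controls. Slco1a1, an uptake carrier of this list chosen here after its values were seen, read 2815 and 2902.9 on the controls, 1994 and 1469.2 on the methanol arrays and 398.1 and 106.8 on the hexane arrays. The 3 groups did not overlap, and the methanol minus hexane difference of 2.94 did not pass (adjusted p = 0.192). Cyp4a12a, also chosen so, read 1834.5 and 724.1 on the hexane arrays, where the methanol arrays had overlapped the controls (1.75, adjusted p = 0.275).

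**Figure D5:**
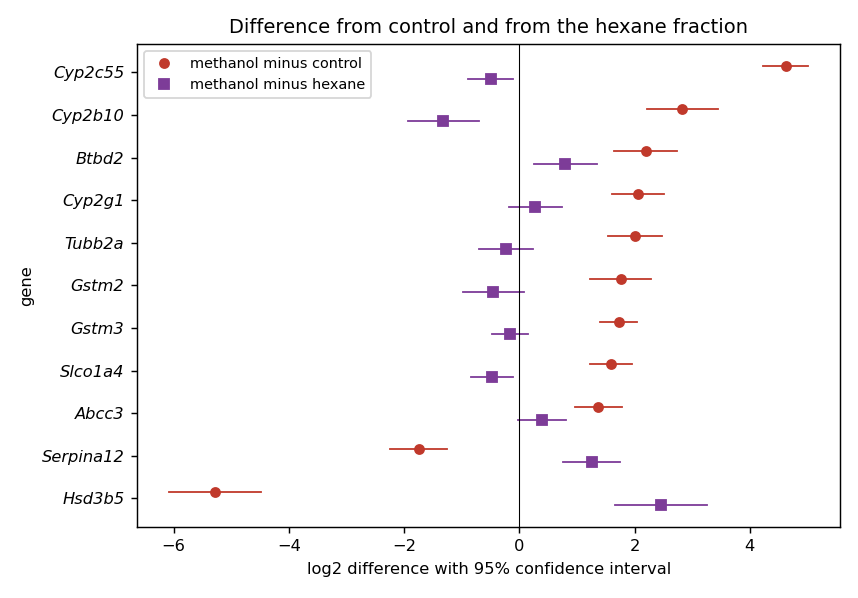
Difference of the methanol fraction from control (red circles) and from the hexane fraction (purple squares), x, log2 with the 95% confidence interval of the limma fit, for the 11 called genes (y). All red intervals exclude 0; the purple points lie between -1.32 (Cyp2b10) and 2.46 (Hsd3b5).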

How the data were processed

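The deposited table holds 1 intensity per probe set and array on a linear scale, made by the authors; how probes were summarised, and with which program, was not given in the sources used here. Detection calls are not part of it. The intensities entered the fit unscaled, since the trimmed means of the arrays, without the outer 2% of probe sets at each end, were equal within 0.006%. Scan batch and chip lot came from the authors' experiment files. After 64 control probe sets were left out, 20380 probe sets had 1 gene symbol in the platform annotation, 691 several and 1555 none. Probe sets entered the tests when 2 or more of the 6 arrays reached the 40th percentile of their own array.

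Values were taken as log2(signal + 16) and fitted with limma 3.58.1 in R 4.3.3 (lmFit, eBayes with a variance trend) over 3 groups, with 3 residual and 5.43 prior degrees of freedom and a median SE of 0.25. All p-values are two-sided and were adjusted by Benjamini-Hochberg across the 14755 tested probe sets. The small number of arrays limits the precision. The procedure was tested on simulated data. The simulated errors were independent, with no effect of scan batch, chip lot or RNA quality, so such effects were not covered.

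The comparison, the 35 pathway lists, the 11 cell type lists and the named genes' rule were chosen with earlier results of these data known. Named are all called genes, then those nearest to them by p among genes with separate groups and at least a 2-fold difference, clones and numbered loci aside. Up to 4 members of each list by p and a set of readouts follow. Of the readouts, Alox5 was not analysed here. Alternatives are given with the results' dependence on processing. Promoters are RefSeq's, on GRCm38.p6; gene positions on the files' own build were not used here.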

Additional observations from a re-analysis of the deposited data

Results flagged for a closer look

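The direct test between the methanol and the hexane fraction singled out 2 probe sets, in both of which the difference from control was not the same with the 2 fractions. The probe set 1423556_at, which is unnamed here, read 116 and 168.1 array units on control 1 and control 2, 484 and 540 on methanol a and methanol b and 2277.4 and 2763.3 on hexane a and hexane b. The methanol minus hexane difference was -2.26 ± 0.23 (SE, adjusted p = 0.0445 with limma), and the 3 groups did not overlap. It also passed against control with the methanol fraction (1.76, adjusted p = 0.047). The probe set 1415896_x_at, which carries several gene symbols, read 1656.3 and 1212.7 on the controls, 1392.7 and 1167.2 on the methanol arrays and 276.1 and 266 on the hexane arrays. There the methanol minus hexane difference was 2.17 ± 0.21 (adjusted p = 0.0445 with limma), while the methanol and control arrays overlapped. Both calls were lost after quantile normalization, with median centring, with a pseudocount of 1 and with no filter. They were also lost with no variance trend, with scan batch as a block, and when any hexane or methanol array was left out.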

How the results depend on the processing

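Across 16 alternatives the count of 16 probe sets called for the methanol fraction against control stayed within 1.5 times in all but the following. It was 10 with no filter on dim probe sets, 2 with no variance trend, 10 with chip lot as a block and 9 with the 4 arrays compared alone, and with 1 array left out it ran from 3 to 28. The 28 came without control 1 and the 3 without methanol a and again without methanol b. The 11 called genes kept their direction under each alternative, within each scan batch and in their other tested probe sets. Of 176 values of these 11 genes over the 16 alternatives 60 no longer passed, and the cause was not tested. Without 1 array, its group rests on a single array assumed to vary like the other groups.

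The count of 2 for the methanol against the hexane fraction became 0 after quantile normalization, with median centring, with a pseudocount of 1, with no filter, with no variance trend and with scan batch as a block. It was 16 with chip lot as a block, and from 0 to 11 with 1 array left out, the 11 without hexane a. The letters a and b share only a label: the differences a minus b of the 2 fractions had r = 0.030 across probe sets. Between control 1 minus 2 and methanol a minus b, which both set scan batch 2 against batch 1, r was 0.296. With that letter as a replicate block, in the 2 fractions alone, 75 passed. Of 750 list medians 119 moved by more than the spread between scan batches. With 2 arrays a group and a median SE of 0.25, small differences are within the error.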

Other observations

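Amino acid and one-carbon genes had no called member after the methanol fraction. Of 26 tested genes of amino acid catabolism and the urea cycle 0 passed with limma and 3 had an unadjusted p under 0.05, and the median was -0.15 (-0.00 without control 1 and -0.02 without methanol b). Prodh, which starts proline breakdown, read 4334.8 and 4275.8 array units on control 1 and control 2 and 2512.9 and 2577.3 on methanol a and methanol b (-0.76 ± 0.14, adjusted p = 0.238). Its replicates were close and its groups apart. Among 17 tested genes of the methionine and one-carbon cycle 0 passed and 3 had an unadjusted p under 0.05. Csad, which makes the precursor of taurine, read 1297.9 and 696.1 on the controls and 2184 and 1558.4 on the methanol arrays (0.94 ± 0.31, adjusted p = 0.606). Pltp, a phospholipid transfer protein, was the apolipoprotein list's highest member, at 1366.4 and 913.5 and then 2491.6 and 2696.9 (1.20 ± 0.23, adjusted p = 0.227).

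Of 36 tested proteasome subunits 23 were above 0 with a median of 0.11 (0.02 without methanol a and 0.22 without methanol b), 0 passed with limma and 2 had an unadjusted p under 0.05, Psma5 (0.41 ± 0.15) and Psmd4 (0.34 ± 0.15). Of 26 chaperones 0 passed, 2 had an unadjusted p under 0.05, both lower, and the median was -0.18 (-0.05 without control 1 and -0.07 without methanol a). Of 19 stress and p53 genes 0 passed and 2 had an unadjusted p under 0.05, Gadd45b, which read 101.3 and 100.6 on the controls and 223 and 164.6 on the methanol arrays, and Cdkn1a, the p53-inducible brake on the cell cycle, at 91.8 and 43.9 and then 171.1 and 145.7. Other probe sets for Gadd45b went both ways, with -0.38 in 1420197_at and 1.60 in 1450971_at. Of 17 circadian clock genes 0 passed and 4 had an unadjusted p under 0.05. Nr1d1, a repressor of the clock, was at 492.2 and 535.5 on the controls and 752.4 and 804 on the methanol arrays (0.58 ± 0.19, adjusted p = 0.602), and Per1 was at 834.1 and 593.1 and then 452.9 and 437.5 (-0.64 ± 0.21, adjusted p = 0.606). The time of day at which livers were taken is not given in the labels. Of 16 glucose and glycogen genes 0 passed and 4 had an unadjusted p under 0.05, all lower; Fbp1, a gluconeogenic phosphatase, read 20879.9 and 23239.5 on the controls and 17207.1 and 15971.1 on the methanol arrays (-0.41 ± 0.11, adjusted p = 0.512). Of 16 pericentral genes 0 passed and 7 had an unadjusted p under 0.05, 1 higher and 6 lower (against 3.31% and 3.92% of all genes), among them Car14, a carbonic anhydrase, at 989.9 and 954.6 and then 574 and 461.5 (-0.90 ± 0.20, adjusted p = 0.367). After quantile normalization the median of the pericentral genes went from -0.19 to -0.07. That of the glucose and glycogen genes went from -0.16 to -0.09. Of 19 carboxylesterases and aldehyde dehydrogenases 0 passed and 5 had an unadjusted p under 0.05, 4 higher and 1 lower. Of 16 nuclear receptors and partners 0 passed and 2 had an unadjusted p under 0.05; Nfe2l2, which encodes Nrf2, read 1488.2 and 1784.4 and then 1986.5 and 2053.6 (0.31 ± 0.21, adjusted p = 0.793). Of 12 cell cycle genes 0 passed with limma and 1 had an unadjusted p under 0.05.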
